A study of Mus musculus with 576 samples.

Results

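Pf4-high LPS cells are the hematopoietic stem cells from the LPS arm in which Pf4 reached 100 CPM, where CPM is a gene's reads per 1000000 of the reads that a cell, or a set of cells summed together, had on genes. The cells were chosen by their own Pf4 level. They were set against Pf4-low cells, with less than 10 CPM of Pf4, after cells short of 50000 gene reads or of 1000 detected genes had been left out. Of 275 LPS cells that passed, 69 were Pf4-high (13 p27 high, 28 p27 low and 28 p27 negative), 124 were Pf4-low (55, 33 and 36 of the same classes), and 82 lay between the limits (25, 29 and 28). The remaining 13 of the 288 LPS cells did not pass, and 11 of them carried the numbers 29 to 32 within their class.

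The series holds 576 mouse bone marrow cells, 96 in each combination of LPS (the bacterial endotoxin) or Ctrl with a p27 marker of high, low or negative level. All cells were sorted as CD150+CD48-cKit+Sca1+, a gate for long-term stem cells, from marrow flushed out of femurs and tibias, into 96-well plates. No strain, age, sex, number of animals, LPS dose or time after LPS is given in the sources used here, so each treatment and class counts as 1 sample, cells are not replicates, and no test across cells was made. Whether the p27 signal came from a reporter or from staining is likewise not given.

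Pf4 encodes platelet factor 4, a chemokine that megakaryocytes pack into alpha granules, the storage vesicles from which platelets release clotting and growth factors. Some stem cells carry transcripts of the megakaryocyte lineage while still in the stem cell gate, and platelet-biased stem cells marked by such transcripts are known in mice. LPS acts through Toll-like receptor 4 and, in marrow, both on stem cells and through cytokines that other cells release, among them interferons. p27, the product of Cdkn1b, is an inhibitor of cyclin-dependent kinases that accumulates in resting cells.

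Gene reads per passed LPS cell ranged between 67389 and 1878063, with a median of 319381. Pf4-high cells had a median of 321014 gene reads and Pf4-low cells of 327940, so depth was alike in both ranges. At an equal depth of 50000 reads, a median of 4412 genes was detected in Pf4-high cells and 4049 in Pf4-low cells (6164 and 5790.5 at full depth), and the same order held in p27 high (4194 and 3845), p27 low (3987 and 3838) and p27 negative cells (5117 and 4843). Mitochondrially encoded transcripts took a median of 5.05% of gene reads in Pf4-high and 5.34% in Pf4-low cells, and spike-in RNA 2.78% and 3.49% of gene plus spike-in reads. These differences ran along with every comparison given here, and their part in it was not tested.

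Pf4 itself, which chose the cells, spanned 105 to 10603 CPM in Pf4-high cells, with a median of 356 CPM, and 0 to 9.92 CPM in Pf4-low cells, with a median of 1.83 CPM. The 3 lowest Pf4-high cells had 105, 108 and 113 CPM, and the 3 cells just under that limit had 98.9, 99.0 and 99.8 CPM. The 3 highest Pf4-low cells had 9.85, 9.87 and 9.92 CPM, and the 3 cells just above that limit between 10.7 and 11 CPM. There was no gap at either limit, and the ranges are cuts through a spread of values. The median Pf4 of Pf4-high cells was 147 CPM in p27 high, 313 CPM in p27 low and 564 CPM in p27 negative cells, so the range that shares a name was not equally high in each class. Pf4 lies at chr5:90772435-90773383 on the plus strand (GRCm38).

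Pf4-high cells made up 14% of p27 high LPS cells (exact 95% Clopper-Pearson interval 7.66 to 22.7%), 31.1% of p27 low cells (21.8 to 41.7%) and 30.4% of p27 negative cells (21.3 to 40.9%). Pf4-low cells made up 59.1%, 36.7% and 39.1% of the same classes. p27 high cells were therefore 18.8% of all Pf4-high cells and 44.4% of all Pf4-low cells, so comparisons over all classes also carry that difference in class, and values within the classes are given beside them for the lists and genes on which the account turns. At 1000 CPM or more the classes parted further, with 1 p27 high, 6 p27 low and 13 p27 negative cells. The intervals cover the drawing of cells from 1 sample and no variation between animals. Cdkn1b, which encodes p27, had 79.8 CPM in Pf4-high and 83 CPM in Pf4-low cells over all classes (log2 fold -0.06). It had 109 and 112 CPM in p27 high, 74.9 and 60.2 CPM in p27 low, and 72.1 and 66.6 CPM in p27 negative cells, so the transcript differed more between the classes than between the Pf4 ranges.

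Other transcripts of the platelet lineage were found in the same cells as Pf4. Of 10 markers of megakaryocytes and platelets other than Pf4 (Itga2b, Gp1ba, Gp1bb, Gp5, Gp6, Gp9, Ppbp, Tubb1, Treml1 and Clec1b), at least 3 were detected at 50000 reads in 36 of 69 Pf4-high cells (52.2%, 39.8 to 64.4%), in 14 of 82 cells between the limits (17.1%) and in 7 of 124 Pf4-low cells (5.65%, 2.30 to 11.3%). In p27 high cells this was 3 of 13 Pf4-high and 2 of 55 Pf4-low cells, in p27 low cells 11 of 28 and 3 of 33, and in p27 negative cells 22 of 28 and 2 of 36. At least 5 of the markers were met by 11 Pf4-high cells (15.9%), 1 cell between the limits and no Pf4-low cell, where 0 of 124 cells allows a share of up to 2.42% by the limit of 3 counts and has an exact upper bound of 2.93%.

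**Figure D1:**
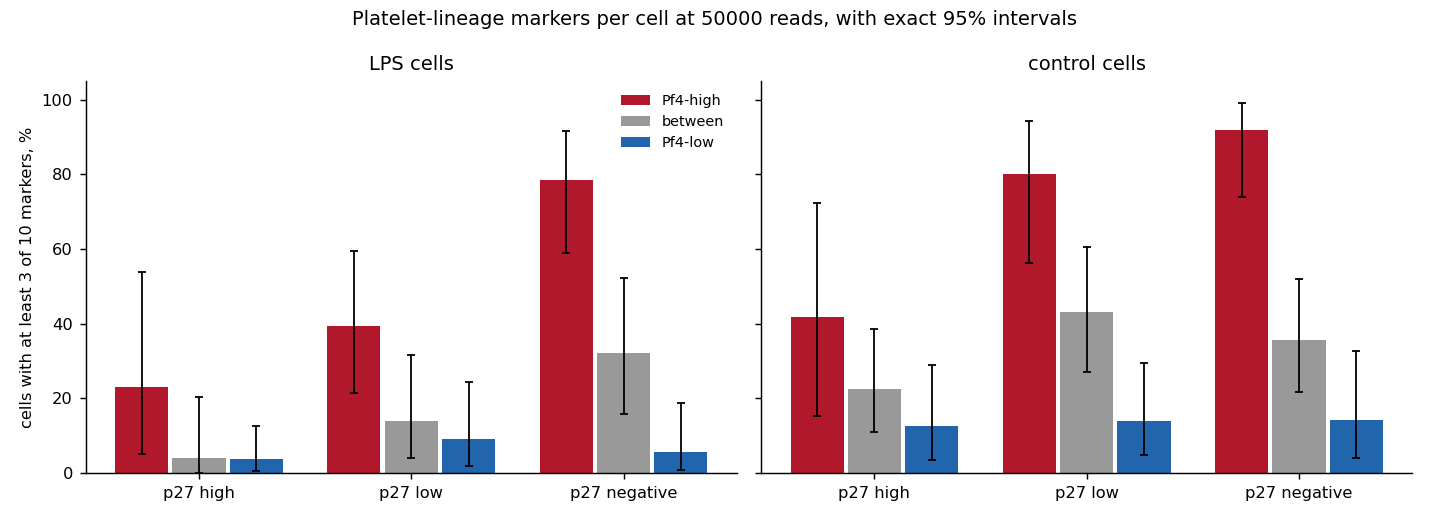
Share of cells (vertical axis, percent) with at least 3 of 10 platelet-lineage markers at 50000 reads, by p27 class and Pf4 range, in LPS and control cells; bars are shares and whiskers exact 95% intervals. In each class and treatment the Pf4-high bar is the tallest, and among LPS cells it is 23.1% in p27 high, 39.3% in p27 low and 78.6% in p27 negative cells.

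The markers were not detected alike. Gp6, the collagen receptor of platelets, had no read in either range, and Tubb1, the beta-tubulin of platelets, had none in Pf4-high cells and 1 in Pf4-low cells. Clec1b, the podoplanin receptor of platelets, had 1 read in Pf4-high and 119 reads in Pf4-low cells (0.034 and 2.30 CPM). Pf4-high cells thus had at most 1 read of these 3 platelet transcripts.

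Over all classes, 409 of 9940 genes with at least 10 CPM in the higher range were at least 2-fold higher in Pf4-high cells (4.11%) and 968 were at least 2-fold lower (9.74%), with 1 CPM added to both levels. The Pf4-high range holds 69 cells and the Pf4-low range 124; with the further demand of a read in at least 20% of the cells of the higher range, 275 genes were higher and 626 lower. Within p27 high cells 1229 of 10100 genes were higher (12.2%) and 2605 lower (25.8%), within p27 low cells 1437 of 9892 were higher (14.5%) and 1862 lower (18.8%), and within p27 negative cells 868 of 9766 were higher (8.89%) and 1282 lower (13.1%). Past 2-fold in all 3 classes were 49 of 8596 genes upward (0.57%) and 103 downward (1.2%). The median log2 fold over 14436 genes with at least 1 CPM was -0.09, and 43.7% of them were higher in Pf4-high cells. Within p27 high, low and negative cells the shares were 40.1%, 48.6% and 46.6%, and the medians -0.27, -0.03 and -0.06. Counts of list members are read against the share of their own class.

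**Figure D2:**
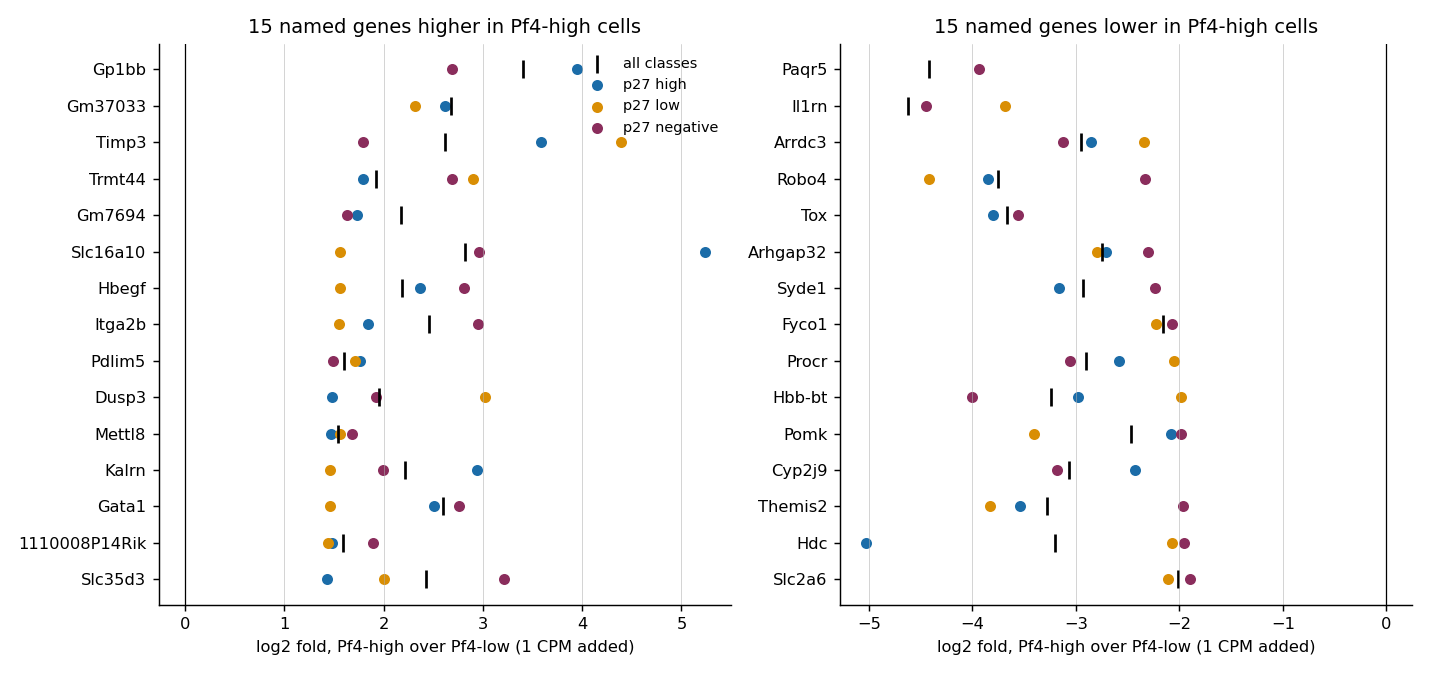
Log2 fold of summed CPM, Pf4-high over Pf4-low (horizontal axis, 1 CPM added), for the 15 genes each way that the naming rule put first; dots are p27 classes and black ticks all classes together. All dots of a gene lie on 1 side of 0, which the rule requires; 11 of 90 dots that rest on 3 reads or fewer in a range are not drawn.

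Receptor genes of platelets were mostly higher in Pf4-high cells over all classes, but not among p27 high cells. Of 26 measured platelet receptor and surface protein genes, 19 were higher in Pf4-high cells and 7 lower, and the median log2 fold was 1.05. Of the 23 members with at least 10 CPM, 12 were at least 2-fold higher and 1 at least 2-fold lower. The median was 1.12 in p27 low and 1.29 in p27 negative cells, and -0.01 in p27 high cells, where 12 of 25 members were higher. Summed over the list, a Pf4-high cell had a median of 2967 CPM and a Pf4-low cell of 2041 CPM, and the ranges of the cells overlapped.

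Itga2b encodes the alpha chain of the fibrinogen receptor, also known as CD41, and lies at chr11:102453297-102470122 on the minus strand. Its summed level was 560 CPM in Pf4-high cells, 254 CPM between the limits and 101 CPM in Pf4-low cells. Single Pf4-high cells had 0 to 1866 CPM with a median of 368 CPM, and single Pf4-low cells 0 to 1137 CPM with a median of 7.18 CPM. The ranges overlapped, and detection at 50000 reads was 56 of 69 Pf4-high cells (81.2%) and 56 of 124 Pf4-low cells (45.2%). The log2 fold was 2.45 over all classes, 1.84 in p27 high (255 and 70.5 CPM), 1.55 in p27 low (547 and 186 CPM) and 2.95 in p27 negative cells (681 and 87.2 CPM). Itgb3, the beta chain of the same receptor, had 221 CPM in Pf4-high, 106 CPM in between and 49.4 CPM in Pf4-low cells, with log2 folds of 1.41 (p27 high), 1.90 (p27 low) and 2.08 (p27 negative). Both chains thus ran the same way in each class.

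Gp1ba, Gp1bb, Gp5 and Gp9 encode the 4 proteins of the complex by which platelets bind von Willebrand factor. Gp1bb stood first among the named genes, with 102 CPM (Poisson 95% interval 98.4 to 106) in Pf4-high cells, 8.27 CPM in between and 8.74 CPM (7.96 to 9.59) in Pf4-low cells. It was detected at 50000 reads in 32 of 69 Pf4-high cells (46.4%) and in 5 of 124 Pf4-low cells (4.03%), and 49.8% of its reads in Pf4-low cells came from 1 cell. The log2 fold was 3.40 over all classes, 3.95 in p27 high cells and 2.69 in p27 negative ones. In p27 low cells Gp1bb had 85.2 CPM in Pf4-high cells and a single read in Pf4-low cells, so no fold is given. Gp9 had 112 CPM in Pf4-high and 44.1 CPM in Pf4-low cells, Gp5 had 64.6 and 16.4 CPM, and Gp1ba 11.7 and 1.84 CPM. Their log2 folds were 1.33, 1.91 and 2.17 over all classes. In p27 negative cells they came to 2.05 for Gp9 and 3.80 for Gp5, while in p27 high cells Gp9 (0.49) and Gp5 (-0.04) lay within 2-fold.

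GATA and ETS factors are known regulators of the genes of this complex, so the 250 bases before the start of each are printed with that of Pf4, from RefSeq (GRCm38.p6). Capitals mark the GATA motifs AGATAA, with its variant AGATAG, and TGATAA, with its variant TGATAG, and the ETS motifs AGGAAG and, as its variant, CGGAAG, on either strand; no 2 marked motifs overlap.
Pf4, chr5:90772185-90772434, plus strand: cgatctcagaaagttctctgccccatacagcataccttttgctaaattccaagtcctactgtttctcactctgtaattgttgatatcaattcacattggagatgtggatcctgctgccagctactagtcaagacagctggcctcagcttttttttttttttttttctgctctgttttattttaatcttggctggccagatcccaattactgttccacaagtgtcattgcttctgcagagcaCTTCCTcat
Gp1ba, chr11:70638872-70639121, plus strand: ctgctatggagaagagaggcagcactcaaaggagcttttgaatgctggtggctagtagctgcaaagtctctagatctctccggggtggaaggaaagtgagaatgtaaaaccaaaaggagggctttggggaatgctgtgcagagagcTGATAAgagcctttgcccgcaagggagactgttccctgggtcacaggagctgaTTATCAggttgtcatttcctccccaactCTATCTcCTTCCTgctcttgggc
Gp1bb, chr16:18622404-18622653, minus strand: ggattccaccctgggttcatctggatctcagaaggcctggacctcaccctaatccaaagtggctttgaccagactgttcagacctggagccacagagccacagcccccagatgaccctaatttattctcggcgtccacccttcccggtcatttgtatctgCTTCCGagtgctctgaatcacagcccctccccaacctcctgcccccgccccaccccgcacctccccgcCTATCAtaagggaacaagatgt
Gp5, chr16:30310782-30311031, minus strand: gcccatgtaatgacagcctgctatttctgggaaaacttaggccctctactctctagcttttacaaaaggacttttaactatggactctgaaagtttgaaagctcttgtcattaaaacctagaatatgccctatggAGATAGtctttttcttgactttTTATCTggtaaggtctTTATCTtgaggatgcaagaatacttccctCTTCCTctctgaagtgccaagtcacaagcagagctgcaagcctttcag
Gp9, chr6:87777820-87778069, plus strand: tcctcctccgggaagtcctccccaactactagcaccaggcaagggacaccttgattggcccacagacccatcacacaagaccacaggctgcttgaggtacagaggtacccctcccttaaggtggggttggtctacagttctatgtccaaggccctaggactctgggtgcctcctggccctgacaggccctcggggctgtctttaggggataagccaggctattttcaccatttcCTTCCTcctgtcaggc

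Gp1ba and Gp5 held 3 GATA matches each, Gp1bb held 1, and Pf4 and Gp9 held none, while each of the 5 windows held 1 ETS match. Over 32536 windows of the same length, 26.5% held a GATA match and 39.3% an ETS match, so single matches are common. Of the 15 genes named as higher, 10 had a window near their annotated start, of which 1 (Gp1bb) held a GATA match and 8 an ETS match. Of the 15 named as lower, 11 had such a window, of which 2 held a GATA match and 6 an ETS match. A match is a run of letters and not a site of binding.

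Transcripts that are abundant in mature platelets were higher in 9 of 11 measured members, with a median log2 fold of 1.49, which was 0.19 in p27 high, 1.17 in p27 low and 2.43 in p27 negative cells. Treml1, an activating receptor that platelets keep in their granules, had 43.7 CPM in Pf4-high and 9.27 CPM in Pf4-low cells. It was detected in 21 Pf4-high and 6 Pf4-low cells at 50000 reads, with log2 folds of 3.77 in p27 negative cells and -1.22 in p27 high cells. Alox12, the 12-lipoxygenase of platelets, had 18.9 CPM in Pf4-high and 0.696 CPM in Pf4-low cells, but its reads came from p27 low cells in the main, where it had 61 CPM in Pf4-high cells and no read in Pf4-low cells.

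Alpha granule cargo other than Pf4 was higher in 11 of 16 measured members (median log2 fold 0.72). The median was 0.44 with each gene's single top cell over both ranges left out. Of 12 members with at least 10 CPM, 6 were at least 2-fold higher and none 2-fold lower. By class the list did not keep 1 direction: 6 of 14 members were higher in p27 high cells (median -0.09), 10 of 14 in p27 low (0.96) and 9 of 16 in p27 negative cells (0.35). Vwf, the adhesive protein of alpha granules that marks platelet-biased stem cells, had 114 CPM in Pf4-high, 19 CPM in between and 22.9 CPM in Pf4-low cells. Its log2 fold was 2.47 in p27 low and 3.60 in p27 negative cells and -1.14 in p27 high cells (15 and 34.4 CPM). Ppbp, the neighbour of Pf4 in the chemokine cluster, had 11 CPM in Pf4-high and 0.735 CPM in Pf4-low cells, and 8 and 2 cells held it at 50000 reads. Clu, a secreted chaperone, had 502 CPM in Pf4-high and 78.7 CPM in Pf4-low cells, but 1 cell gave 79.3% of the Pf4-high reads. Without the single top cell over both ranges its log2 fold was 0.45.

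Not every gene that platelets use followed Pf4. Selp, the granule membrane protein P-selectin, had 81.2 CPM in Pf4-high and 105 CPM in Pf4-low cells (log2 fold -0.36). Slamf1, which encodes the CD150 of the gate, had 89.3 and 61.5 CPM (0.53). Jam3, a junctional adhesion molecule, was lower, with 5.75 CPM in Pf4-high and 37.6 CPM in Pf4-low cells (log2 fold -2.52).

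Genes of the platelet cytoskeleton and its signalling were higher in 23 of 31 measured members, with a median log2 fold of 0.41. Of the 28 with at least 10 CPM, 7 were at least 2-fold higher and none 2-fold lower. In p27 high cells 15 of 30 members were higher (median -0.01), against 23 of 31 in p27 low (0.31) and 23 of 30 in p27 negative cells (0.64). Rap1b, the small GTPase that switches on the fibrinogen receptor, had 1648 CPM in Pf4-high cells, 485 CPM in between and 424 CPM in Pf4-low cells. Single cells had medians of 1124 CPM in Pf4-high and 320 CPM in Pf4-low cells, and detection was nearly complete in both (97.1% and 91.9% of cells), so the difference was one of level. Its log2 fold was 0.58 in p27 high, 2.06 in p27 low and 2.26 in p27 negative cells. Tuba8, an alpha-tubulin of platelets, had 233 CPM in Pf4-high and 41.2 CPM in Pf4-low cells, with a log2 fold of 4.68 in p27 high cells, -0.05 in p27 low cells and 2.58 in p27 negative cells. Plek, or pleckstrin, a substrate of protein kinase C in platelets, had 383 and 130 CPM in all, with log2 folds of 1.58 (p27 high), 1.07 (p27 low) and 1.49 (p27 negative). Fermt3, the kindlin that activates blood cell integrins, had 893 and 494 CPM (0.85).

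**Figure D3:**
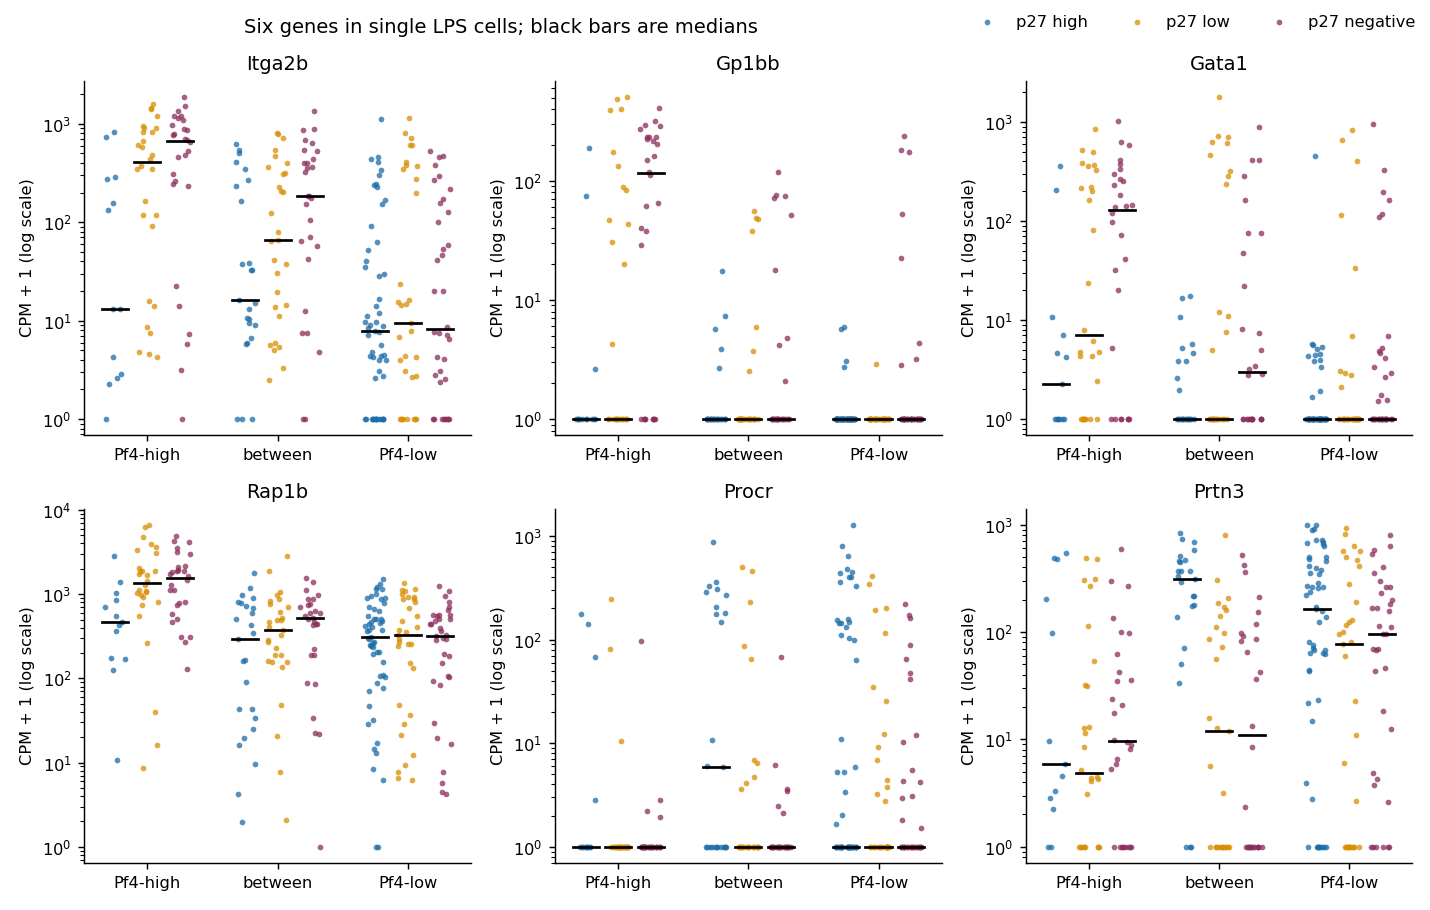
Level of 6 genes in every LPS cell (vertical axis, CPM + 1, log scale) by Pf4 range and p27 class; each dot is a cell and black bars are medians of a class. Itga2b, Gp1bb, Gata1 and Rap1b are higher in Pf4-high cells, Procr and Prtn3 lower, with overlap in each panel.

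Among transcription factors of megakaryocytes and red cells the picture was mixed, with 14 of 24 higher and a median log2 fold of 0.17. In p27 high cells 5 of 24 were higher and 9 were at least 2-fold lower (median -0.79), while 15 were higher in p27 low (0.24) and 17 in p27 negative cells (0.44). Gata1, which drives both lineages, had 153 CPM in Pf4-high, 90.8 CPM in between and 24.5 CPM in Pf4-low cells. It was detected in 53.6% of Pf4-high and 12.9% of Pf4-low cells, and its log2 fold was 2.51 in p27 high, 1.46 in p27 low and 2.76 in p27 negative cells. Gata2, the related factor of stem cells and early megakaryocytes, had 457 and 272 CPM (0.75), and Runx1 121 and 66.7 CPM (0.85). Fli1, the ETS factor of megakaryocytes, had a log2 fold of 1.36 in p27 low and 1.11 in p27 negative cells and of -1.16 in p27 high cells. Klf1, the red cell factor, had 18.9 CPM in Pf4-high and 6.09 CPM in Pf4-low cells. Lyl1, a helix-loop-helix factor of stem and progenitor cells, went the other way in each class, with 76.1 CPM in Pf4-high and 215 CPM in Pf4-low cells (log2 fold -1.48), although it had 36.2 and 31.2 CPM (0.21) in the cells with a strong inflammatory response described further on. Nfe2, which late megakaryocytes need, had 368 CPM in Pf4-high and 520 CPM in Pf4-low cells (-0.50).

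Several genes outside the platelet lists stood among the 15 named as higher. Timp3, an inhibitor of metalloproteinases, had 392 CPM in Pf4-high and 63 CPM in Pf4-low cells (log2 fold 2.62). Slc16a10, a transporter of aromatic amino acids, had 50.9 and 6.35 CPM (2.82). Hbegf, a ligand of the EGF receptor, had 18.2 and 3.23 CPM (2.19), but 38.1 CPM in the cells between the limits, so it did not follow Pf4 step by step. Dusp3, a phosphatase of MAP kinases, had 63.5, 21.7 and 15.7 CPM in Pf4-high, between and Pf4-low cells (1.95). Slc35d3, a transporter needed for platelet dense granules in mice, had 40.9, 6.75 and 6.77 CPM (2.43).

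Lymphoid and myeloid progenitor genes were mostly lower in Pf4-high cells in each class, while the stem cell genes had no common direction. Of 20 measured lymphoid and myeloid progenitor genes, 16 were lower in Pf4-high cells. Their median log2 fold was -0.90 over all classes, -1.10 in p27 high, -0.86 in p27 low and -0.97 in p27 negative cells. With each gene's single top cell over both ranges left out, these medians were -0.54, -0.43, -0.60 and -0.20. In the cells with a weak inflammatory response the median was -0.20. Of 40 stem cell and dormancy genes, 26 were lower, 7 of the 32 with at least 10 CPM by 2-fold or more. Their median was -0.42 over all classes, -0.77 in p27 high and -0.21 in p27 low cells, but 0.13 in p27 negative cells. Without p27 high cells, which are more common in the Pf4-low range, the median of the stem cell list over the other classes was 0.12.

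Procr, the protein C receptor that marks the most potent stem cells (chr2:155751117-155755471, plus strand), had 7.22 CPM in Pf4-high, 40.9 CPM in between and 60.5 CPM in Pf4-low cells. It was detected at 50000 reads in 6 of 69 Pf4-high cells (8.70%) and 38 of 124 Pf4-low cells (30.6%), and its log2 fold was -2.58 in p27 high, -2.05 in p27 low and -3.06 in p27 negative cells. Sult1a1, a sulfotransferase found in dormant stem cells, had 15.7 and 157 CPM, with -3.06, -2.19 and -1.23 by class. Hlf, a transcription factor that keeps stem cells quiescent, had 28.9 and 117 CPM, with -1.53, -0.95 and -1.95. Hoxa9, a homeobox factor of stem and progenitor cells, had 38.4 and 84.9 CPM (log2 fold -1.12), and Gimap1, a GTPase of lymphoid cells, 95.8 and 221 CPM (-1.19). Ly6a, which encodes the Sca1 of the gate, had 541 CPM in Pf4-high and 1066 CPM in Pf4-low cells (-0.98) and Kit 193 and 319 CPM (-0.72), both still detected in most cells. Cd48, the marker that the gate leaves out, was low in both (9.43 and 11.5 CPM).

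Of the progenitor genes, Prtn3, a granule protease of myeloid precursors, had 71.6 CPM in Pf4-high and 211 CPM in Pf4-low cells and was detected in 39.1% and 68.5% of them. Its log2 fold was -1.80, -0.92 and -1.55 in p27 high, low and negative cells. Cd34, a progenitor surface protein, had 159 and 334 CPM (log2 fold -1.07), and Csf3r, the receptor of G-CSF, 28.7 and 103 CPM (-1.81). Mpo, the peroxidase of myeloid granules, and Satb1, a chromatin organiser of lymphoid-primed cells, had 6 reads each in Pf4-high cells (0.204 CPM) and 10.3 and 12.3 CPM in Pf4-low cells. Ptprc, the blood cell antigen CD45, had 117 and 237 CPM (-1.01). Of the genes named as lower outside these lists, Robo4, a guidance receptor that helps mouse stem cells lodge in the marrow, had 1.36 and 31 CPM (-3.76), and Arrdc3, an arrestin-like adaptor, 2.01 and 22.3 CPM (-2.95). Robo4 was detected in 3 Pf4-high and 28 Pf4-low cells.

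The inflammatory response split the LPS cells along another line. The summed level of 30 NF-kB target and acute-phase genes lay at 10000 CPM or more in 130 of 275 LPS cells (47.3%) and in 1 of 272 control cells. The 130 cells had a median of 49783 CPM and the other 145 a median of 3274 CPM, no cell lay between 9026 and 10519 CPM, and 27 lay between 5000 and 20000 CPM. Serpina3g, a serine protease inhibitor, made up 41.9% of the sum. The limit was set after the values had been seen and marks a range, not a cell type.

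**Figure D4:**
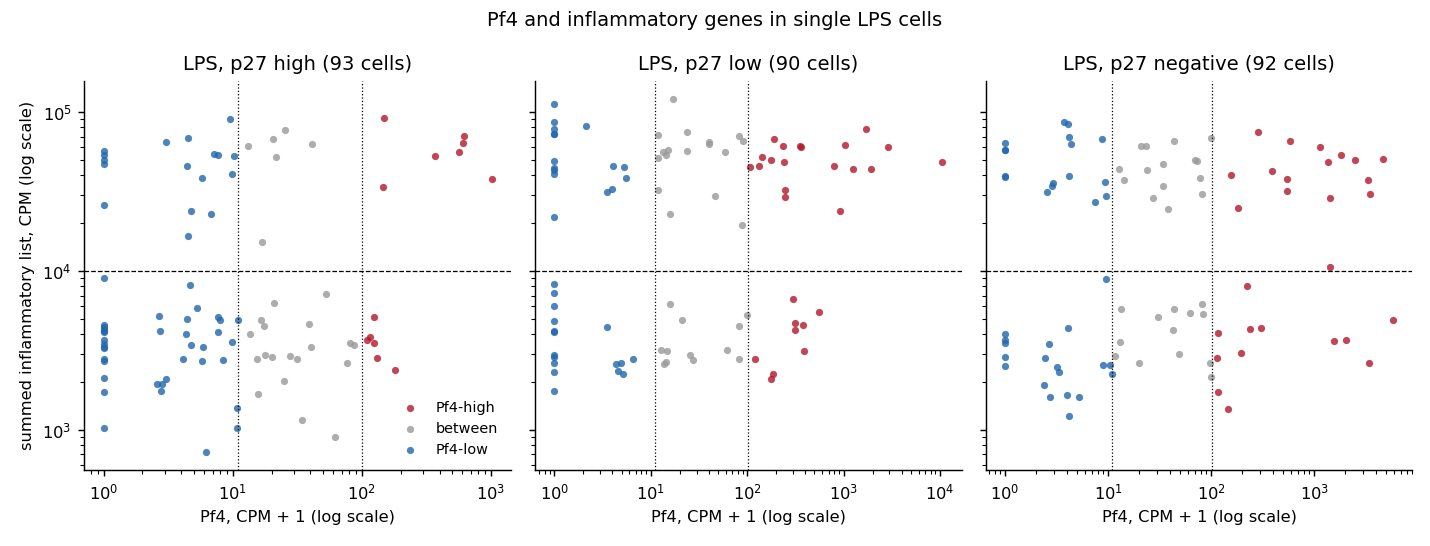
Summed level of the inflammatory list (vertical axis, CPM, log scale) against Pf4 (horizontal axis, CPM + 1, log scale) in LPS cells, a panel for each p27 class; each dot is a cell, dotted lines mark the Pf4 limits and the dashed line 10000 CPM. Cells of each Pf4 range lie in both groups of inflammatory sum, 42 of 69 Pf4-high and 50 of 124 Pf4-low cells at 10000 CPM or more.

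Pf4-high cells were in the upper range more often, 42 of 69 (60.9%, 48.4 to 72.4%) against 38 of 82 cells between the limits (46.3%) and 50 of 124 Pf4-low cells (40.3%, 31.6 to 49.5%). By class it was 7 of 13 Pf4-high and 17 of 55 Pf4-low cells in p27 high (53.8% and 30.9%), 19 of 28 and 16 of 33 in p27 low (67.9% and 48.5%), and 16 of 28 and 17 of 36 in p27 negative (57.1% and 47.2%). The Pf4-high share was above the Pf4-low share in each class, while their intervals overlap. Between the limits it was 6 of 25 cells in p27 high (24%), below the Pf4-low share there. In p27 low it was 17 of 29 (58.6%) and in p27 negative 15 of 28 (53.6%). Over single cells the inflammatory sum had a median of 32323 CPM in Pf4-high and 4859 CPM in Pf4-low cells, and the 40 interferon response genes a median sum of 18757 and 5947 CPM. The summed level of the interferon list was nearly equal, 21263 and 21268 CPM, and the upper quartile of its sum over cells was 30899 CPM in Pf4-high and 39236 CPM in Pf4-low cells. The median cell and the summed level thus gave different orders.

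The folds of the response genes differed by class. NF-kB target and acute-phase genes were higher in 25 of 29 measured members in p27 high cells (median log2 fold 1.09), against 11 of 30 in p27 low (-0.82) and 11 of 28 in p27 negative cells (-0.26). Interferon response genes were higher in 37 of 40 in p27 high cells (0.76), 12 of 40 in p27 low (-0.24) and 11 of 40 in p27 negative cells (-0.18). With each gene's single top cell over both ranges left out, the NF-kB medians were 0.83 in p27 high, -0.21 in p27 low and -0.19 in p27 negative cells. The summed level of the NF-kB list was higher in Pf4-high cells of each class, with 39863 and 16576 CPM in p27 high, 32917 and 27562 CPM in p27 low, and 29347 and 24426 CPM in p27 negative cells. That of the interferon list was 33708 and 19755 CPM in p27 high, 20389 and 25149 CPM in p27 low, and 17171 and 20714 CPM in p27 negative cells. For the NF-kB list the sum and the median member thus ran in opposite directions in p27 low and p27 negative cells. Il6, a cytokine of the acute phase, had 184 CPM in Pf4-high and 56.9 CPM in Pf4-low cells, and its log2 fold was 2.84 in p27 high, 0.77 in p27 low and 1.08 in p27 negative cells. Rsad2, the antiviral protein viperin, had a log2 fold of 0.82 in p27 high cells and of -1.38 and -1.33 in p27 low and negative cells. Lcn2, an iron-binding acute-phase protein, had 470 CPM in Pf4-high and 31.5 CPM in Pf4-low cells among p27 high cells, and 1.12 and 200 CPM among p27 low cells.

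**Figure D5:**
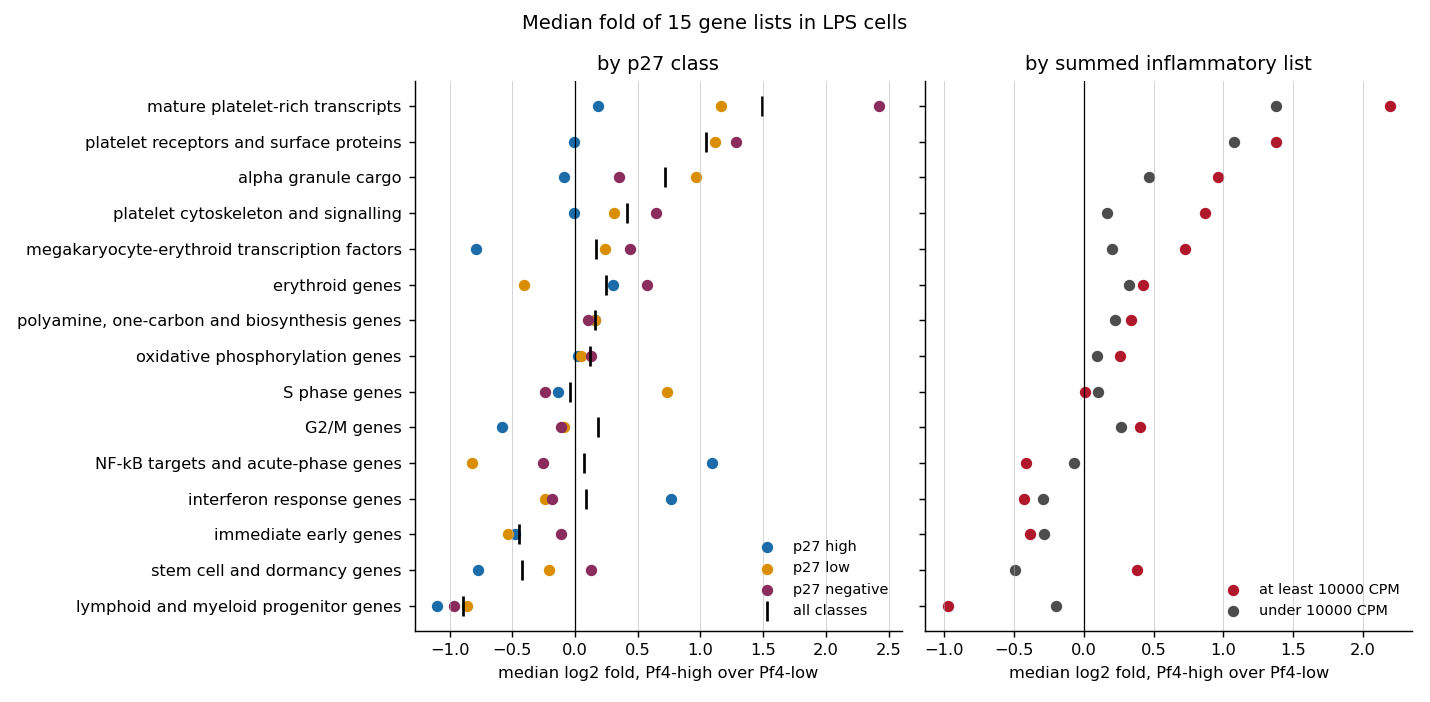
Median log2 fold, Pf4-high over Pf4-low (horizontal axis), of 15 gene lists by p27 class and over all classes (left), and in cells with an inflammatory sum of at least or under 10000 CPM (right). The medians of the platelet lists lie right of 0 in both inflammatory ranges, and the stem cell list lies at 0.38 in the upper and -0.49 in the lower range. The right panel pools p27 classes, whose mix differs between the Pf4 ranges.

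Because Pf4-high cells were in the upper range more often, the comparison was repeated inside each range of the inflammatory sum. There were 42 Pf4-high and 50 Pf4-low cells in the upper and 27 and 74 in the lower. The p27 classes were pooled here. Of these cells, 7 Pf4-high and 17 Pf4-low ones were p27 high in the upper range, and 6 and 38 in the lower. The folds within a range therefore also carry that difference in class. Of all genes with at least 1 CPM, 52.4% were higher in Pf4-high cells of the upper range and 44.5% in the lower. Interferon response genes were higher in 0 of 40 members in the upper (median log2 fold -0.43) and 12 of 39 in the lower range (-0.30). They summed to 30957 CPM in Pf4-high and 45332 CPM in Pf4-low cells of the upper range, and 3513 and 4164 CPM in the lower. NF-kB target and acute-phase genes were higher in 9 of 29 (-0.42) and 13 of 27 members (-0.07). Their sums were 48047 and 48547 CPM in the upper range, and 3788 and 3197 CPM in the lower. The ranges were cut on the sum of this same list, which limits how far it can differ between Pf4 ranges inside them. Platelet receptors were higher in 21 of 24 members in the upper (median log2 fold 1.38) and 18 of 26 in the lower range (1.07). The counts were 9 of 10 and 8 of 11 for mature platelet transcripts (2.20 and 1.37), 10 of 14 and 11 of 15 for alpha granule cargo (0.96 and 0.47), and 24 of 31 and 20 of 31 for the platelet cytoskeleton (0.87 and 0.17). Clu ran against its list in the lower range, with 31.4 CPM in Pf4-high and 40.3 CPM in Pf4-low cells. Itga2b had log2 folds of 2.89 and 1.98, Itgb3 of 2.08 and 1.60, Rap1b of 1.77 and 2.05, Vwf of 2.79 and 1.65, and Gata1 of 1.34 and 3.84. Procr (-2.38 and -2.45), Robo4 (-3.60 and -3.69), Sult1a1 (-1.94 and -3.37) and Csf3r (-1.36 and -2.15) were lower in both.

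Il1rn, Hdc, Ccl3 and Timp3 were past 2-fold in the upper range and at 8.21 CPM or less in both Pf4 ranges of the lower. Il1rn, the natural antagonist of the interleukin 1 receptor, had 4.37 CPM in Pf4-high and 254 CPM in Pf4-low cells of the upper range, and 1.45 and 0.60 CPM in the lower range. Hdc, which makes histamine, had 10.1 and 173 CPM in the upper range and 1.25 and 0.63 CPM in the lower, and Ccl3, a chemokine of monocytes, 2.53 and 209 CPM in the upper and 3.95 and 1.99 CPM in the lower. Ccl3 belongs to the list whose sum set the ranges, so its low level in the lower range is in part built in. Of Pf4-low reads over all cells, 1 cell gave 36.7% for Il1rn, 32.3% for Hdc and 50.3% for Ccl3. Timp3 had 602 CPM in Pf4-high and 140 CPM in Pf4-low cells of the upper range, and 7.90 and 8.21 CPM in the lower. Hlf went the other way, with a log2 fold of -0.07 in the upper and -1.57 in the lower range, and the stem cell list had medians of 0.38 in the upper and -0.49 in the lower range. The difference between the inflammatory ranges was not tested, and with classes pooled it cannot be told apart from their unequal mix of p27 classes.

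Over all classes the folds of genes of division and growth were small, and they did not carry over to each class. The 30 G2/M genes summed to 3216 CPM in Pf4-high and 2873 CPM in Pf4-low cells, with 20 members higher (median log2 fold 0.18) and none past 2-fold, but the medians within p27 high, low and negative cells were -0.58, -0.09 and -0.11. Mki67, a marker of cycling cells, had 349 and 302 CPM. S phase genes had a median of -0.04 over all classes, while in p27 low cells 27 of 30 were higher (median 0.73), 11 of them by at least 2-fold. Over all classes, genes of polyamine, one-carbon and nucleotide synthesis were higher in 20 of 24 (median 0.16), with Psat1, of serine synthesis, at 404 and 197 CPM (log2 fold 1.03), Mthfd2, of the mitochondrial folate pathway, at 226 and 112 CPM (1.01) and Srm, spermidine synthase, at 682 and 406 CPM (0.75). Oxidative phosphorylation genes, likewise over all classes, were higher in 25 of 30, by a median of 0.12, and none passed 2-fold.

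Over all classes, markers of white blood cells, vessels and stroma were low in both ranges. Neutrophil and monocyte markers summed to 136 CPM in Pf4-high and 172 CPM in Pf4-low cells with 7 of 18 measured, lymphocyte markers to 198 and 127 CPM with 5 of 18, and endothelial and stromal markers to 130 and 148 CPM with 6 of 16. The neutrophil and monocyte list holds Lcn2, with a log2 fold of 3.86 in p27 high and -6.57 in p27 low cells. Its sums over all classes therefore do not hold for each class. Of 32 red cell genes 19 were measured and 12 were higher (median log2 fold 0.24). They summed to 3594 CPM in Pf4-high and 4589 CPM in Pf4-low cells, of which Car2, a carbonic anhydrase, made up 2478 and 3746 CPM, while the globin Hbb-bt had 2.38 CPM in Pf4-high and 31 CPM in Pf4-low cells. Cd3e, Cdh5, Ngp, Ltf, Col1a1 and Cxcl12, which are among the defining markers of these lineages, had 0 to 3 reads in each range.

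The same limits in control cells gave 57 Pf4-high and 96 Pf4-low of 272 cells, and 119 between. Pf4-high cells made up 14.3% of p27 high, 21.5% of p27 low and 26.3% of p27 negative control cells. At least 3 of the 10 markers were detected in 44 of 57 Pf4-high (77.2%) and 13 of 96 Pf4-low control cells (13.5%). There, 658 of 10305 genes were at least 2-fold higher (6.39%) and 1458 lower (14.1%). Of the genes called in LPS cells, 103 of the higher ones were called in control cells too, which is 25.2% of the LPS and 15.7% of the control calls, and 299 of the lower ones (30.9% and 20.5%). Another 55 of the 409 higher and 56 of the 968 lower ones were called the opposite way. Of all 10305 control genes, 14.1% were called lower and 6.39% higher. Among higher ones, 329 had at least 10 CPM in a Pf4 range of control cells, and 193 of these kept their direction. Among lower ones, 593 of 833 did so. The 2 comparisons share no cells.

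Itga2b had a log2 fold of 2.30 in control cells (770 CPM in Pf4-high and 155 CPM in Pf4-low cells), Gp1bb of 5.15 (232 and 5.56 CPM), Rap1b of 2.41 (1809 and 340 CPM), Gata1 of 1.97 (313 and 79.2 CPM) and Vwf of 2.03 (311 and 75.2 CPM). Procr had -3.67 (10.5 and 145 CPM), Sult1a1 -4.67 (4.33 and 134 CPM) and Prtn3 -2.11 (52.7 and 231 CPM). The median of the stem cell list was -0.86 in control cells, with 29 of 38 members lower, and that of the lymphoid and myeloid list -0.70. Il1rn and Il6 had no read in either Pf4 range of control cells, and Hdc had 0.822 CPM in Pf4-high and 0.377 CPM in Pf4-low control cells. Timp3 had 39.5 and 4.37 CPM. Arrdc3, named as lower among LPS cells, had 33.4 CPM in Pf4-high and 36.1 CPM in Pf4-low control cells, and Slc16a10, named as higher, 22.4 and 34 CPM, so both lay within 2-fold there.

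Across the 275 LPS cells the rank correlation (Spearman's rho) with Pf4 was 0.42 for Gp1bb and for Itga2b, 0.39 for Rap1b and for Gata1, and -0.23 for Procr. The values share library depth and amplification, and are given as a description. By class, Itga2b had 0.17 in p27 high, 0.42 in p27 low and 0.56 in p27 negative cells, and Rap1b had 0.07, 0.44 and 0.57 in the same order. The median rho over 8761 genes was 0.04.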

How the data were processed

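Reads per gene were measured in 576 single cells. The deposited values are raw counts, with no normalization, per the file headers. GSNAP as aligner, mm10 as build and HTSeq 0.6.0 as counter are named in the submitters' processing notes. Which annotation was counted, and with which strand setting, is not given in the sources used here, so antisense and overlapping genes cannot be told apart. Libraries followed the plate protocol of Picelli and colleagues with Nextera XT on a HiSeq 2500, per the labels' protocols. Of LPS reads 36.3% were on genes, 1.17% on spike-ins, 50.6% not aligned, 7.03% in no feature and 4.85% ambiguous; rows that name no gene stayed out of all totals. No pair of cells held identical counts. There are no molecular identifiers, so intervals cover counting error only.

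Symbols and coordinates (1-based) came from GENCODE M21 by gene ID, for 45143 of 46078 genes. The level of a gene in a set of cells is its summed reads per 1000000 of the set's gene reads. Log2 folds were taken after adding 1 CPM. Detection per cell was read after thinning each cell to 50000 reads. A gene was counted past 2-fold where its higher level was at least 10 CPM, and list members where it was at least 1 CPM; Pf4 was left out of all lists. No test was made, doublets were not sought, and RefSeq windows were used where their start lay within 500 bases of the GENCODE start. Python 3.11.15, numpy 2.4.6, pandas 2.3.3 and scipy 1.17.1 were used, and edgeR 4.0.16 for TMM factors as an alternative. The counting of genes was tested on simulated data, drawn independently for each gene and cell with the same spread for every gene. Genes with most reads in a single cell were not simulated, so that test does not bear on them.

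A gene was named if its higher range had at least 10 CPM, a read in at least 20% of its cells and 1 direction in summed CPM, mean CPM and each p27 class with at least 8 cells in each range. Those genes were ranked by their smallest fold over the classes, with 15 each way over all classes, 5 each way within a class, up to 4 per list and fixed markers. Plek, Fermt3, Cd34, Hoxa9 and Gimap1 were named after their values had been seen, as were the limit of 10000 CPM on the inflammatory sum and the demand of 20% of cells. The members and the 24 gene lists were chosen with earlier results of these data known. Some genes that the naming rule covers are not reported here.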

Additional observations from a re-analysis of the deposited data

Results flagged for a closer look

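In 5 of 77 genes of the text with at least 10 CPM in the higher range and over 3 reads in each, in at least 2 classes, the Pf4-high over Pf4-low fold took opposite signs, each past 2-fold, in different p27 classes; the difference between classes was not tested, since each class is 1 sample. Of all 9510 such genes, 863 did so (9.07%). These shares cannot be set against each other, since the genes named over all classes had to keep 1 direction in each class. Treml1 had a log2 fold of 3.77 in p27 negative cells and of -1.22 in p27 high cells, 4.99 apart. Vwf had 3.60 in p27 negative and -1.14 in p27 high cells, 4.74 apart. Cavin2, a protein of caveolae that platelets hold in quantity, had 4.01 in p27 negative and -2.70 in p27 high cells, 6.70 apart, with 1.27 CPM in Pf4-high and 13.7 CPM in Pf4-low cells of the p27 high class. Fli1 had 1.36 in p27 low and -1.16 in p27 high cells, 2.52 apart. Lcn2 had 3.86 in p27 high and -6.57 in p27 low cells, 10.4 apart. Of these, 4 are platelet-lineage genes that were lower in Pf4-high than in Pf4-low cells of the p27 high class, where the Pf4-high range has 13 cells.

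The median of the NF-kB target and acute-phase list was 1.09 in p27 high and -0.82 in p27 low cells, 1.92 apart and likewise not tested. With each gene's single top cell over both ranges left out, the medians were 0.83 and -0.21. In p27 high cells 7 of 13 Pf4-high and 17 of 55 Pf4-low cells had an inflammatory sum of at least 10000 CPM, and in p27 low cells 19 of 28 and 16 of 33.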

How the results depend on the processing

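Over 16 settings, 1239 of 1392 folds of named genes kept their sign and stayed within 1 SD over the 3 p27 classes, 139 moved further and 14 changed sign; of 67 genes past 2-fold, 33 stayed so in each setting. For lists 383 of 432 medians stayed, for counts 89 of 116 and for shares 15 of 18.

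With a minimum of 1 CPM, 1004 genes were higher and 2114 lower over all classes, 4338 lower in p27 high, 2368 higher and 3027 lower in p27 low, and 1699 and 2488 in p27 negative cells; with 50 CPM these were 118 and 215 over all classes, 590 and 855, 560 and 666, and 273 and 361 by class. With Pf4 at 200 CPM or more against no Pf4 read, 891 were higher and 1674 lower, with 1871 higher among p27 high cells and 1857 among p27 negative ones; cut at 50 CPM alone, 261 and 611. Without p27 negative cells 767 and 1599 were called, in cells with an inflammatory sum of at least 10000 CPM 1073 were higher, and under it 851 and 1478. With a read in 20% of cells 626 were lower. Of all calls 29.7% were higher ones, 35.6% with TMM factors, 36.9% without p27 high cells, 49.9% in the upper and 36.5% in the lower inflammatory range. TMM factors moved the median of all genes with at least 10 CPM from -0.06 to about 0.

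The lymphoid and myeloid median was -1.03 with 0.1 CPM added, -0.52 with 5 CPM, -1.07 in cells with at least 200000 reads and 2000 genes, and -0.63 in thinned cells. It was -1.11 for Pf4 of 200 CPM against none, -0.57 when cut at 50 CPM, -0.54 without each gene's top cell and -0.20 in the lower inflammatory range. The stem cell median was 0.12 without p27 high cells and 0.38 in the upper inflammatory range. Lymphocyte markers turned to -0.84 without each gene's top cell, -0.36 without p27 high cells and -0.028 with any read. The chemokines beside Pf4 turned to -0.43 without each gene's top cell. Cavin2 turned to -0.34 without p27 negative cells, and without p27 low cells Alox12 to -0.49 and Acod1 to 0.89. In the upper inflammatory range Lyl1 turned to 0.21 and Pomk to 0.83. In the lower, Clu turned to -0.35, Timp3 to -0.049, Il6 to -0.31, Il1rn to 0.62, Hdc to 0.47, Slc2a6 to 0.26, Ccl3 to 0.73, Alox12 to -1.13 and Acod1 to 0.19. There Il6 had only 1.25 CPM in Pf4-high and 1.79 CPM in Pf4-low cells, Slc2a6 0.67 and 0.40, Acod1 0.67 and 0.46, and Alox12 0 and 1.19. Such levels lie near the 1 CPM added, so the sign of these folds carries little. The cause was not tested. The share of Pf4-high cells was 5.38% of p27 high cells at 200 CPM and 23.3% in the upper inflammatory range, and 41.3% of p27 negative cells at 50 CPM.

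No paired analysis was possible because the values come from no test and no label ties a cell number to an animal, plate or day. Each class is 1 sample, and genes at a few CPM rest on few cells.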
